A study of Castanea mollissima with 6 samples.

Results

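A set of 67 low-level genes was listed at exactly 0 in every r_1m root library of Castanea mollissima, the Chinese chestnut, and was detected in every r_3m root library. They are 0.197% of the 33991 gene IDs in the deposited table. A gene was taken into the set when it had at least 1 FPKM in each of the 3 r_3m libraries, 0 in each of the 3 r_1m libraries, and a log2(mean r_3m FPKM + 1) below 4, which is a mean below 15 FPKM. FPKM is the number of sequenced fragments of a gene, scaled to its length and to the mapped fragments of the library. The rule used the values of both groups, so the levels of these genes and their difference between r_1m and r_3m are given as a description, with no test.

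Both groups are total RNA from root tissue, made into directional Illumina libraries. The sample titles set 3 libraries apart as r_1m and 3 as r_3m. The labels used here do not explain these names and give no genotype, treatment, age or growth condition. Replicates are numbered in the order of the records, and a number pairs nothing across the groups. Nothing in the labels tells whether separate plants lie behind the libraries of a group, and p-values therefore measure the spread between libraries only, a spread that may be technical. The run numbers form a separate block for each group, so a batch and the group cannot be told apart.

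Roots are built from concentric cell types, among them epidermis, cortex, endodermis and the vascular cylinder, and each cell type also uses genes of its own. As a root matures it adds tissues and lateral organs, and it also responds to water, nutrients and microbes in the soil. A low value in bulk root RNA can come from a few cells with much of a transcript or from many cells with little of it. In the same way, fewer cells of a type and less RNA per cell cannot be told apart in these libraries. The table pairs its IDs with no gene names, and no annotation was used, so the genes are described by ID prefix, rank and value, and no function is given. Without names, the root label could not be checked against marker genes.

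In relative sequencing depth, with r_1m replicate 1 taken as 100%, the r_1m libraries ran from 88.0% to 100% and the r_3m libraries from 64.1% to 89.0%. The r_3m libraries were thus the shallower group but for r_3m replicate 3, which was slightly above r_1m replicate 3. Between 25654 and 25882 genes were above 0 in an r_1m library and between 23754 and 24389 in an r_3m library. Low FPKM values move in whole steps of 1 sequenced fragment. Among low genes whose values came out within 0.1 of whole fragments and averaged at least 10 of them in a group, the variance between libraries was 1.03 times the counting error in r_1m (908 genes) and 2.698 times in r_3m (849 genes), so the r_1m libraries differed by about the sampling noise; whether they repeat 1 sample cannot be told. In all, 5900 genes (17.4%) were at 0 in the 6 libraries together.

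The set lies between a lower and an upper limit in a longer list of genes that appeared in r_3m alone. Of the 6699 genes at 0 in every r_1m library, 799 (2.35% of all genes) were above 0 in at least 1 r_3m library. Most of these rested on very little signal: 412 were above 0 in exactly 1 r_3m library, with a median of 0.22 FPKM and a highest value of 1.66 FPKM, and 156 in exactly 2. The other 231 were above 0 in each r_3m library. At a minimum of 0.5 FPKM in each r_3m library 117 genes were left, at 1 FPKM 83, at 2 FPKM 54, at 5 FPKM 31 and at 10 FPKM 17. Of the 83 genes at 1 FPKM, 16 lay above the upper limit on the mean, which leaves the 67 described here.

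Most of the 67 genes were expressed at a few FPKM. Their mean over the r_3m libraries ran from 1.30 to 14.97 FPKM, with a median of 3.55 FPKM and quartiles of 2.11 and 6.23 FPKM. A mean of 1 to 2 FPKM was found for 16 of them, 2 to 5 FPKM for 29, 5 to 10 FPKM for 18 and 10 to 15 FPKM for 4. Summed over the 67 genes, expression was 323.8, 313.8 and 284.6 FPKM in r_3m replicates 1, 2 and 3, which is 0.0369%, 0.0358% and 0.0319% of the total FPKM of each library. All 3 libraries carried the set at a similar summed level.

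**Figure D1:**
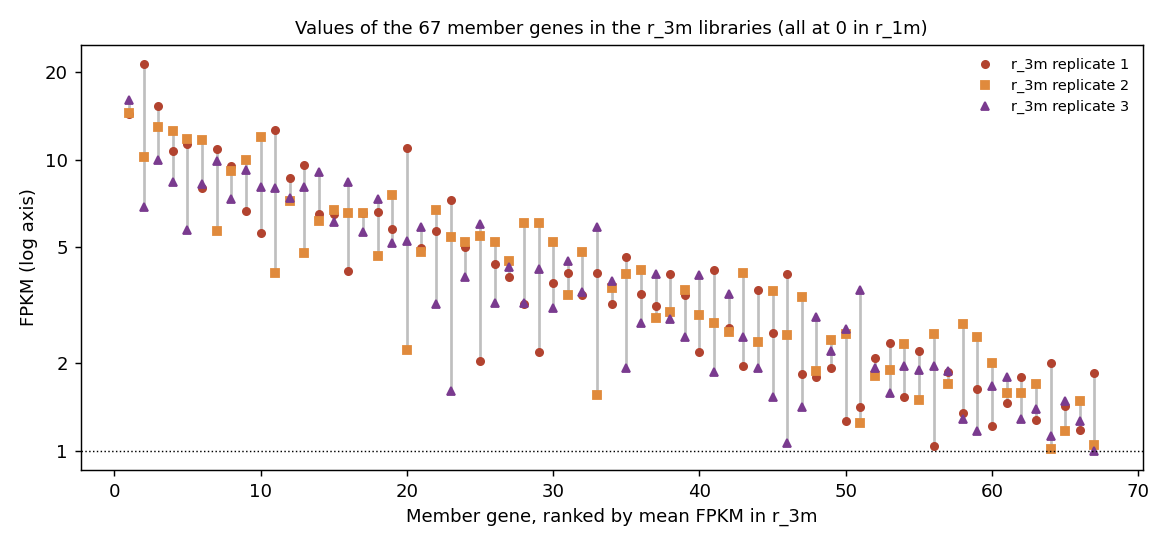
FPKM (log axis) of each of the 67 genes in the 3 r_3m libraries, with the genes ranked by their mean; the grey line spans the lowest and the highest library and the dotted line marks 1 FPKM. All genes were at 0 in the r_1m libraries, and the means run from 14.97 down to 1.30 FPKM, with the library that is highest changing from gene to gene.

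The highest of the set was Cm09G01140.gene, which stood at 14.35, 14.54 and 16.02 FPKM in r_3m replicates 1, 2 and 3 and was listed at 0 in all r_1m libraries. Its r_3m values lay close together, the highest being 1.12 times the lowest. The next, Cm09G01251.gene, stood at 21.39, 10.24 and 6.88 FPKM in the same order. Here the libraries disagreed, with replicate 1 at 3.11 times replicate 3, although the mean of 12.8 FPKM was near that of the first gene.

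Among the genes at ranks 3 to 10 by mean, the values were of the same order. The Cm02 gene at rank 3 had 15.34, 12.97 and 9.97 FPKM. The Cm07 gene at rank 4 had 10.71, 12.53 and 8.37 FPKM. The Cm01 gene at rank 5 had 11.39, 11.80 and 5.73 FPKM. In these 3 genes replicate 3 was the lowest library. Of the Cm09 genes, that at rank 6 had 8.04, 11.67 and 8.30 FPKM and that at rank 7 had 10.94, 5.68 and 9.95 FPKM. Of the Cm03 genes, that at rank 8 had 9.50, 9.14 and 7.36 FPKM and that at rank 9 had 6.70, 9.99 and 9.21 FPKM. The 4 genes thus differ in which library is highest. The Cm08 gene at rank 10 had 5.63, 11.95 and 8.10 FPKM and was highest in replicate 2.

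The lowest 3 genes all carried the prefix Cm02. The gene at rank 65 had 1.42, 1.17 and 1.48 FPKM, that at rank 66 had 1.18, 1.48 and 1.27 FPKM, and that at rank 67 had 1.85, 1.05 and 1.00 FPKM. Each stayed below 2 FPKM in every library.

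The limits of the set cut through a continuous range of values. Just inside the minimum of 1 FPKM lay the Cm02 gene at rank 67, with its lowest library at 1.00 FPKM, and a Cm05 gene with 2.00, 1.01 and 1.12 FPKM. Just outside lay a Cm03 gene with 0.97, 1.71 and 1.62 FPKM and a Cm00 gene with 0.96, 1.02 and 1.80 FPKM. At the upper limit, Cm09G01140.gene was inside with a log2(mean + 1) of 3.997, and a Cm04 gene with 15.92, 18.26 and 11.63 FPKM was outside at 4.024. The nearest gene kept out by its r_1m value was a Cm08 gene with 0.02 FPKM in r_1m replicate 1 and 6.92, 7.46 and 8.50 FPKM in r_3m. Had r_1m values of up to 0.05 FPKM been allowed, the set would hold 79 genes, with up to 0.1 FPKM 104, with up to 0.2 FPKM 165 and with up to 0.5 FPKM 318.

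The weight of a single sequenced fragment puts these limits in scale. Whole fragments were looked for in low genes, and 3463 of the 4080 genes that had a mean below 2 FPKM and a value above 0 in all 6 libraries gave whole fragments in every library (within 0.2 of a fragment). In those genes 1 fragment was worth a median of 0.0978 FPKM in r_3m replicate 1, 0.0742 in replicate 2 and 0.0704 in replicate 3. In replicate 3 the quartiles were 0.0438 and 0.119 FPKM. The worth depends on gene length, and the 3 values above 0 of a gene in the set were too few to recover its own fragments, so no count is given for single genes. A value of 0 therefore allows a small true level, and whether these genes were silent in r_1m was not detectable at this depth.

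The members were also chosen from 5 libraries at a time and then looked up in the sixth, whose values had no part in the choice. With r_3m replicate 1 left out, 77 genes were chosen, and 68 of them (88.3%, 95% Clopper-Pearson interval 79.0% to 94.5%) had at least 1 FPKM in it, 7 were lower but above 0, and 2 were at 0. With replicate 2 left out, 68 of 73 genes (93.2%, interval 84.7% to 97.7%) had at least 1 FPKM in it, and with replicate 3 left out 68 of 77 (88.3%, interval 79.0% to 94.5%). No gene chosen without replicate 2 or replicate 3 was at 0 in that library. The intervals cover the counting of genes only, and genes of 1 library are not independent. In each case 66 of the 68 genes belonged to the set of 67, and the other 2 went over the upper limit with the left-out library.

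The median value in the left-out library was 3.20, 3.55 and 2.88 FPKM for r_3m replicates 1, 2 and 3, close to the medians of 3.28, 3.21 and 3.41 FPKM over the libraries that had made the choice. For all genes of the table chosen on the same minimum and upper limit in the same r_3m pair, without regard to r_1m, the share with at least 1 FPKM in the left-out library was 95.3%, 96.9% and 96.8%. These genes are expressed more strongly on the whole. Among genes whose pair mean was under 5 FPKM, the share was 83.3% of 54, 90.2% of 51 and 83.0% of 53 genes at 0 in r_1m, against 90.1%, 93.4% and 93.4% of all such genes.

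The same was done for the r_1m libraries, where the chosen genes at 0 in the left-out library are by construction the set itself. With r_1m replicate 1 left out, 67 of 81 chosen genes (82.7%, interval 72.7% to 90.2%) were at 0 in it, with replicate 2 left out 67 of 77 (87.0%, interval 77.4% to 93.6%) and with replicate 3 left out 67 of 79 (84.8%, interval 75.0% to 91.9%). The 10 to 14 genes that were not at 0 reached at most 0.42, 0.45 and 0.48 FPKM in the left-out library, with medians of 0.125, 0.105 and 0.10 FPKM. None of them came near the r_3m minimum of 1 FPKM. Genes with a weaker r_3m signal were above 0 in at least 1 r_3m library but below 1 FPKM in at least 1. Of those at 0 in the other r_1m pair, 78.3%, 80.6% and 79.7% were at 0 in the left-out library. These shares lie within the intervals above, so a similar recurrence of 0 was seen outside the chosen genes. The r_1m libraries differed by about the sampling noise, so a left-out one may not be independent of the others.

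**Figure D2:**
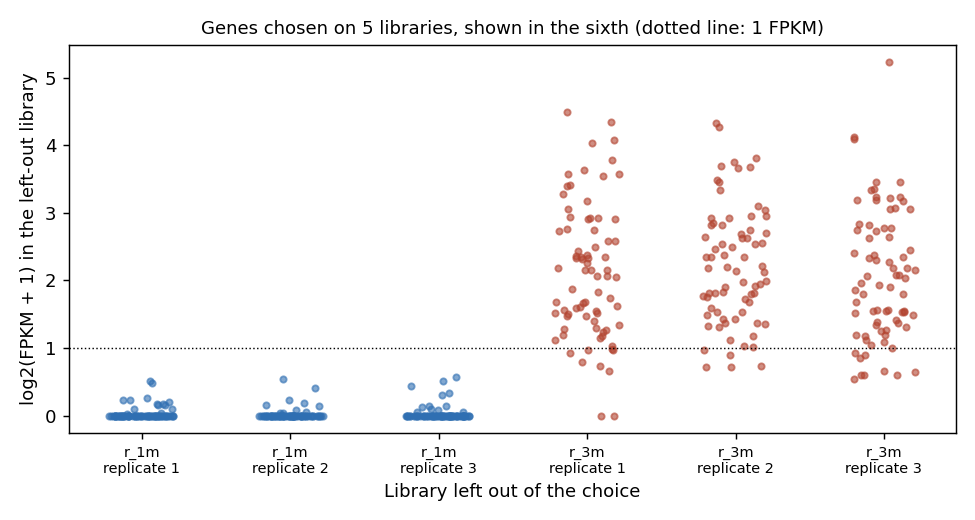
log2(FPKM + 1) in 1 library, left out of the choice, of the genes chosen by the rule on the other 5; each point is a gene and the dotted line marks 1 FPKM. The 77 to 81 genes of an r_1m column stay at or near 0, at most 0.48 FPKM, and most of the 73 to 77 genes of an r_3m column lie above the line.

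The genes of the set varied widely between the r_3m libraries. The highest r_3m library was at least 2 times the lowest in 23 of the 67 genes (34.3%) and at least 3 times in 6. The widest range was that of a Cm03 gene at rank 20, with 10.96, 2.22 and 5.26 FPKM, where replicate 1 was 4.94 times replicate 2. The narrowest was that of a Cm05 gene at rank 15, with 6.53, 6.74 and 6.13 FPKM, a range of 1.10 times.

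Other genes of the same r_3m level were more even. Of the 8735 genes outside the set with at least 1 FPKM in each r_3m library and a mean below 15 FPKM, 1188 (13.6%) had a highest library at least 2 times the lowest. The median of the highest over the lowest library was 1.57 in the set and 1.39 in these genes. Within levels the shares were 18.8% of 16 against 9.91% of 979 genes at 1 to 2 FPKM, 41.4% of 29 against 20.7% of 2987 at 2 to 5 FPKM, and 36.4% of 22 against 9.92% of 4769 at 5 to 15 FPKM. The set was higher in each class, but at 1 to 2 FPKM its share rests on 3 genes. The medians of the highest over the lowest library there were 1.48 in the set and 1.46 in the others. The minimum of 1 FPKM in every library holds the range down for both sides, most of all in the lowest class. The classes match FPKM and not fragments, and the part of counting noise in the difference was not tested. These are descriptions of 3 libraries, with no test.

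Genes close to the set in their r_1m values varied about as widely by the median. Of 251 genes of this r_3m level with an r_1m value above 0 but at most 0.5 FPKM, 62 (24.7%) ranged at least 2-fold over the r_3m libraries, and their median of the highest over the lowest library was 1.59, against 1.57 in the set. Of 8484 genes above 0.5 FPKM in r_1m, 1126 (13.3%) did, with a median of 1.38. A wide range over the r_3m libraries was thus shared by genes that were near 0 but not at 0 in r_1m.

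**Figure D3:**
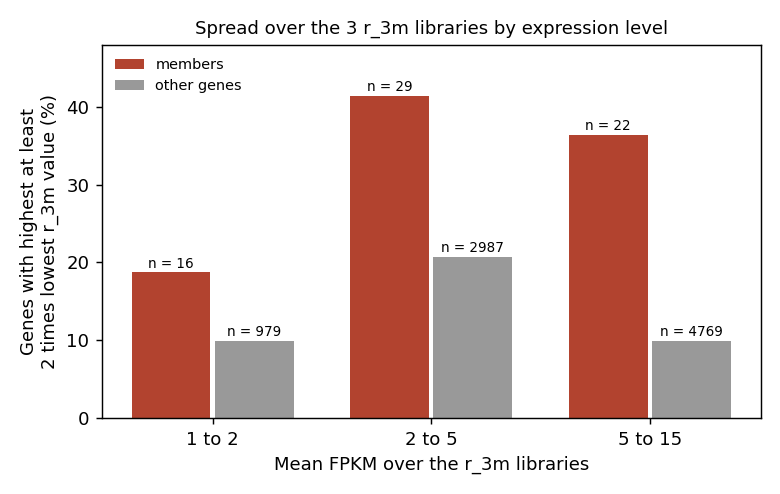
Share of genes (%) whose highest r_3m library was at least 2 times the lowest, by mean FPKM over the r_3m libraries, for the set (red) and for all other genes with at least 1 FPKM in each r_3m library (grey); n is the number of genes. The set stands above the other genes in each class, with 36.4% against 9.92% at 5 to 15 FPKM. The classes match FPKM, not fragments.

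The library that was highest also differed. In the set, replicate 1 was highest for 21 genes (31.3%), replicate 2 for 28 (41.8%) and replicate 3 for 18 (26.9%). In the other genes of this level the shares were 28.1%, 32.3% and 39.6%. Replicate 3 was the lowest library for 27 genes of the set (40.3%), against 33.2% of the others. Replicate 1 had the lowest depth of the r_3m libraries and replicate 3 the highest, and the part of depth in this order was not tested.

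The IDs of the set were spread over all 13 ID prefixes, unevenly. The prefix Cm02 held 12 of the genes, or 3.62 per 1000 of its 3316 IDs. Cm09 held 11, or 4.59 per 1000 of its 2397. As percentages these are 0.362% and 0.459%, against 0.197% of all IDs. Cm00, with only 1003 IDs, held 4 of the genes, or 3.99 per 1000, which is denser than Cm02. The opposite rule, described at the end, also gave 12 Cm02 genes, but only 5 with the prefix Cm09. Cm05 held 9 and Cm03 held 8. Cm07, Cm11 and Cm12 held 1 gene each, which is 0.456, 0.411 and 0.462 per 1000. Cm01, the prefix with the most IDs (4499), held 4, or 0.889 per 1000. What the prefixes stand for is not given in the sources used here.

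Some genes of the set lay next to each other in ID number. In 2 cases 2 of them had consecutive IDs, and 13 of the 67 (19.4%) had another within 5 IDs, in 6 groups. Similar closeness was found in another set: of the 103 genes chosen by the opposite rule, described at the end, 9.71% had another at a consecutive ID, against 5.97% here, and 16.5% within 5 IDs. The sets differ in size, and a larger set has more room for close IDs. The share for IDs picked at random was not computed, so whether this closeness is unusual was not tested. The first consecutive pair, with the prefix Cm09, joined the gene at rank 6 to that at rank 34, which had 3.19, 3.63 and 3.83 FPKM. The second, with the prefix Cm05, joined the genes at ranks 64 and 63, with 2.00, 1.01 and 1.12 FPKM and with 1.28, 1.70 and 1.39 FPKM. Replicate 1 was highest in the one and lowest in the other. These values were low, and the part of counting noise in this order was not tested. It is assumed here that consecutive ID numbers mark neighbouring genes, which was not checked.

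Genes 1 ID away from the set, which are not in it, were then examined in a comparison of all genes. This was a limma fit on log2(FPKM + 1) over the 20038 genes that averaged at least 1 FPKM in the 6 libraries, with Benjamini-Hochberg adjustment, and a gene was called when its adjusted p was below 0.05. The scale of all fold changes here is log2(FPKM + 1), on which the change of a low gene appears too small. In this fit 33.9% of all tested genes were higher and 33.6% lower in r_3m. Of the 67 genes, 51 had a mean high enough to be tested and all 51 were called higher, against the 33.9% of all genes. Nothing can be read from that count, because the rule had used the same contrast. The other 16, with r_3m means below 2 FPKM, were left out by the filter.

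Neighbours of the set leaned towards higher expression in r_3m. There were 129 genes 1 ID away, of which 56 were tested. Of these 56, 29 (51.8%) were called higher, against 33.9% of all tested genes, and 13 (23.2%) lower, against 33.6%. At least 2-fold higher were 20 (35.7%), against 11.9%, and at least 2-fold lower 7 (12.5%), against 16% of all genes. Their median log2 fold change was 0.48, against 0.02 over all tested genes. Among genes 2 IDs away the lean in these calls was small: 20 of 59 (33.9%) were higher, 19 (32.2%) lower and 10 (16.9%) at least 2-fold higher, with a median of 0.07. With the r_1m libraries averaged and counted as 1 sample, a fit added after seeing the data whose spread comes from r_3m alone, 24 of the 56 neighbours (42.9%) were higher and 7 (12.5%) lower, against 17% and 18.1% of all tested genes. These are counts over genes that were not drawn independently, and no test of the difference was made.

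**Figure D4:**
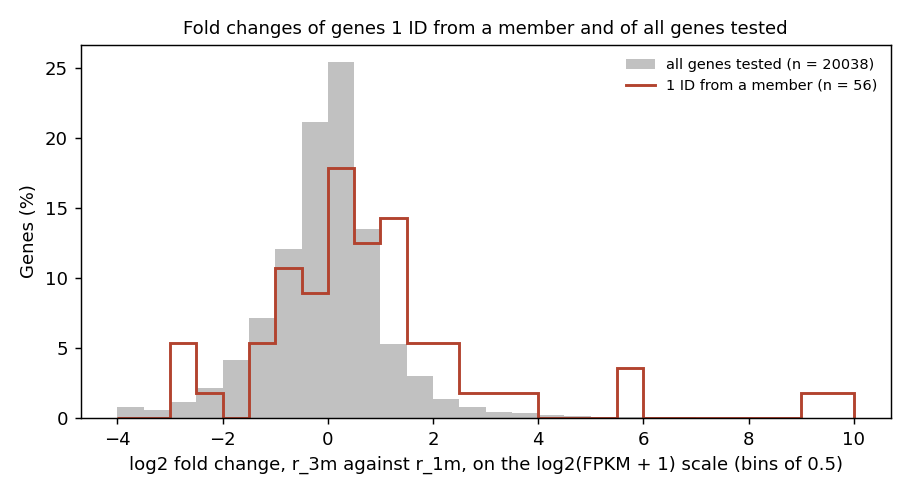
Distribution of log2 fold changes (r_3m against r_1m, on the log2(FPKM + 1) scale, bins of 0.5, with values below -4 or above 10 placed in the end bins) of the 56 tested genes 1 ID from the set (red line) and of all 20038 tested genes (grey), as a percentage of each. The red line has more of its genes above 1 and a tail beyond 4, and its median is 0.48 against 0.02.

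A tested neighbour outside the set was found for 42 of its genes. Of these 42, 16 had a neighbour called at least 2-fold higher, 7 had one called at least 2-fold lower, and 0 had both. The same count was not made for genes outside the set, so it shows no trait of the set. Increases of at least 16-fold were found for 4 of the 56 neighbours (7.14%), against 139 of all tested genes (0.694%). A pair of the 4 flanked the same gene of the set. Of the 129 neighbours, tested or not, 10 (7.75%) were at 0 in r_1m and above 0 in at least 1 r_3m library, against 2.35% of all genes. Among the 127 genes 2 IDs away there were 11 (8.66%), so this share was no lower there. Another 10 of the 129 (7.75%) were the reverse, at 0 in r_3m and above 0 in at least 1 r_1m library, against 6.66% of all genes. The 10 neighbours at 0 in r_1m were weak, with no value above 1.21 FPKM. A further 26 (20.2%) were at 0 in all 6 libraries, against 17.4% of all genes.

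Strong neighbours were found in a few places, which were chosen after their values were seen. The Cm00 gene at rank 11 had 12.72, 4.09 and 8.04 FPKM in r_3m replicates 1, 2 and 3. The gene 1 ID below it had 1163, 599.6 and 866.3 FPKM, from at most 0.21 FPKM in r_1m (9.50 ± 0.22 SE as a log2 fold change, limma adjusted p = 2.14e-07). The gene 1 ID above it had 1859, 637.1 and 1170 FPKM, from at most 0.29 FPKM in r_1m (9.94 ± 0.35 SE, limma adjusted p = 1.08e-06). In all 3 genes replicate 1 had the highest and replicate 2 the lowest value. The gene in the middle was the weakest by far. The gene 2 IDs below it was at 0 in every library of both groups. Another gene 3 IDs below it, with 47.42, 17.25 and 34.67 FPKM, had the same order of libraries. The gene 2 IDs above it, with 1.76, 0.84 and 5.55 FPKM, did not, being highest in replicate 3. Whether reads of the strong genes were counted for the weak one was not tested.

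Around the consecutive Cm09 pair, 5 IDs in a row were higher in r_3m. Below the pair, a gene went from 0.38, 0.24 and 0.09 FPKM in r_1m to 3.12, 3.46 and 3.45 FPKM in r_3m (1.82 ± 0.13 SE as a log2 fold change, limma adjusted p = 2.45e-05). Above it, a gene went from 9.18, 10.93 and 9.19 to 40.54, 54.89 and 43.18 FPKM (2.12 ± 0.13 SE, limma adjusted p = 1.17e-05). The gene after that went from 1.88, 1.65 and 1.07 to 11.10, 9.65 and 6.11 FPKM (1.95 ± 0.23 SE, limma adjusted p = 2.36e-04). In each of these 3 neighbours every r_3m library lay above every r_1m library. The rise therefore did not stop at the genes that were at 0 in r_1m.

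The largest group of the set within 5 IDs held 3 Cm05 genes, at ranks 62, 41 and 15. They had 1.79, 1.58 and 1.29 FPKM, then 4.17, 2.76 and 1.87 FPKM, then 6.53, 6.74 and 6.13 FPKM in the order of their IDs. The 4 genes that lay between them in ID number stayed at or below 0.56 FPKM in all 6 libraries. Here the genes of the set stood out of a short stretch of IDs at or near 0, unlike the Cm09 pair. Beyond that stretch, the gene 2 IDs below the rank 62 gene fell from 10.10, 10.08 and 10.30 to 4.54, 5.35 and 5.67 FPKM. The gene 3 IDs below it rose from 13.51, 14.07 and 16.29 to 30.45, 34.11 and 26.64 FPKM. At the second consecutive pair, the gene above went from 35.23, 37.31 and 38.41 to 74.39, 83.23 and 81.82 FPKM (1.09 ± 0.07 SE, limma adjusted p = 1.52e-05), while the gene below was at 0 in all 6 libraries.

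**Figure D5:**
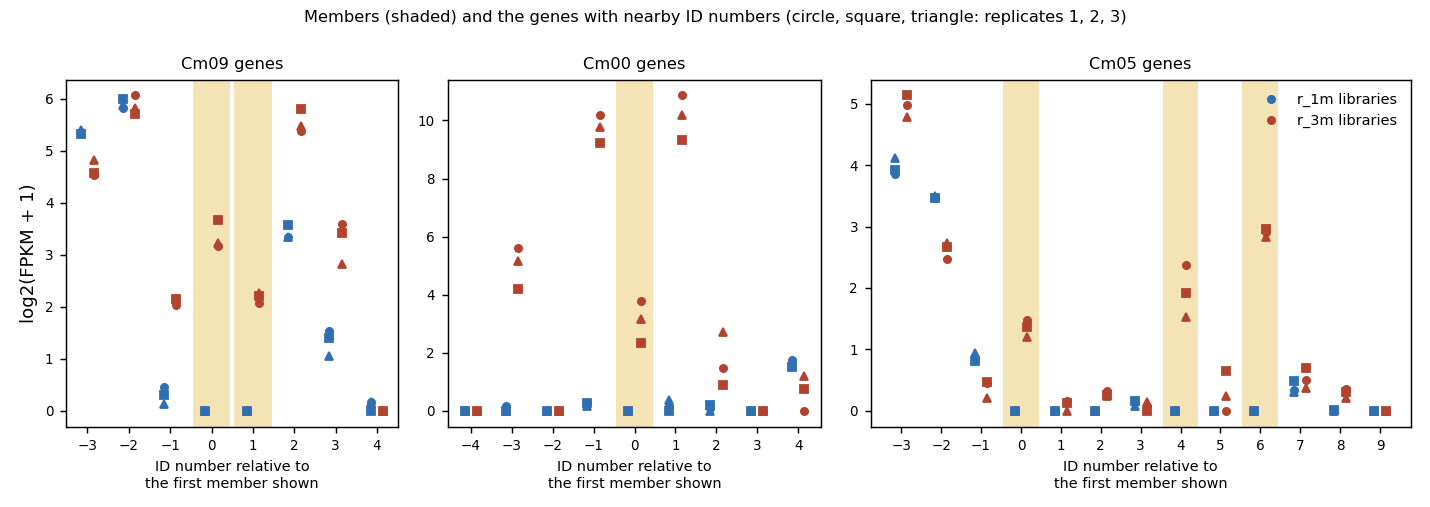
log2(FPKM + 1) in each library (blue r_1m, red r_3m; circle, square and triangle for replicates 1, 2 and 3) of genes with consecutive ID numbers around genes of the set (shaded), counted from the first one shown. On the left the genes beside the Cm09 pair rose too, and in the middle a Cm00 gene of the set lies between neighbours of up to 1859 FPKM. On the right the genes that lie between 3 Cm05 genes of the set are at or near 0. Genes at the left edge of that panel were expressed in both groups.

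Other genes of the set had strong neighbours as well. Beside the Cm09 gene at rank 7, the gene above went from 0.20, 0.26 and 0.14 FPKM in r_1m to 64.18, 63.87 and 56.57 FPKM in r_3m (5.70 ± 0.10 SE, limma adjusted p = 7.55e-08). The gene below rose from 1.11, 0.96 and 1.47 to 9.23, 8.46 and 7.30 FPKM (2.10 ± 0.14 SE, limma adjusted p = 1.48e-05). Beside the lowest gene of the set, the Cm02 gene at rank 67, the gene below rose from 0.47, 0.74 and 0.80 to 65.43, 70.68 and 116.58 FPKM (5.63 ± 0.22 SE, limma adjusted p = 1.64e-06). That neighbour was highest in replicate 3, where the gene of the set was lowest. Neighbours also fell: beside the Cm04 gene at rank 28, which had 3.20, 6.07 and 3.22 FPKM in r_3m, the gene below went from 15.98, 16.12 and 15.52 to 1.18, 0.97 and 1.27 FPKM (-2.98 ± 0.10 SE, limma adjusted p = 8.17e-07). With r_1m averaged as 1 sample, the limma adjusted p of the neighbours given with an adjusted p above ran from 0.00104 to 0.0227. Next to the highest gene, Cm09G01140.gene, the gene below was at 0 in all 6 libraries and the gene above did not exceed 0.10 FPKM.

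The opposite rule, at least 1 FPKM in each r_1m library and 0 in each r_3m library with the same upper limit, gave 103 genes. These were lower than the r_3m genes, with a median mean of 2.53 FPKM against 3.55 FPKM, and 39.8% of them had a mean of 1 to 2 FPKM against 23.9% of the r_3m genes. They varied less, with a highest r_1m library at least 2 times the lowest in 7 genes (6.80%), against 34.3% of the r_3m genes over the r_3m libraries. All genes of that level also varied less in r_1m: outside each set the shares were 1.06% in r_1m and 13.6% in r_3m. Both sets thus ranged more widely than the other genes of their level. In r_1m the median of the highest over the lowest library was 1.31 in the opposite set and 1.17 in those genes. A wider range than other genes of the level was therefore not particular to the r_3m genes. With a minimum of 10 FPKM in each library and no upper limit, 17 genes were at 0 in r_1m and 21 at 0 in r_3m. With any value above 0 in each library the numbers were 231 and 766, and the r_1m libraries were the deeper group. Their neighbours leaned towards lower expression in r_3m: of 103 tested genes 1 ID away, 45 (43.7%) were lower, against 33.6% of all tested genes, and 27 (26.2%) at least 2-fold lower, against 16%. A lean of neighbours in the direction of the chosen genes was therefore seen for both sets. Both rules used the same 6 libraries, and the difference between the sets was not tested.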

How the data were processed

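Total RNA of root samples was sequenced in 3 r_1m and 3 r_3m libraries, grouped by their titles. The authors deposited 1 table of FPKM values with 2 decimals. The submitters' processing notes name FastQC 0.11.9 for checking reads, Trimmomatic for trimming and STAR 2.7.10b for alignment, and the series' design text states FPKM as the normalization. The sources used here do not give the counter of reads, the build, the annotation, or what was done with reads mapping to more than 1 gene. Genes that overlap or have near-identical copies may therefore share reads. The 6 columns that match the titles were used, and the other 207 columns were not.

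All genes were compared with limma 3.58.1 in R 4.3.3 on log2(FPKM + 1) (two-sided moderated test with a mean-variance trend in eBayes, p adjusted by Benjamini-Hochberg over the 20038 genes averaging at least 1 FPKM). Relative depth came from the ratios at which low values of library pairs pile up. Exact Clopper-Pearson intervals came from scipy 1.17.1. The fit and the recovery of fragments were tested on simulated data, where recovery from 3 libraries mostly failed and was therefore not used.

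The members and lists were chosen with earlier results of these data known. By rule, the 2 genes with the highest r_3m mean are named by ID. Others are given by prefix and rank: ranks 3 to 10, the 3 lowest, the widest and narrowest ranges, and consecutive IDs. Lists by product name and cell type markers were not run, since no names were available. Alternatives changed the limits of the rule, the pseudocount, filter, scaling and variance model, and left out each library; averaging r_1m as 1 sample was added after seeing the data.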

Additional observations from a re-analysis of the deposited data

How the results depend on the processing

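The number of genes in the set depended on its limits: 101 at a minimum of 0.5 FPKM, 38 at 2 FPKM, and 104 with r_1m values of up to 0.1 FPKM, against 67. It was 79 with up to 0.05 FPKM, 83 with no upper limit and 72 on the TPM scale, of which 66 were among the 67, and 73 to 81 when 1 library was left out. Over all genes, 6787 were called higher and 6732 lower; leaving out 1 library gave 5842 to 7106 and 5769 to 7355. The genes of the set that passed the filter were all called: 51 in the comparison above, 44 to 59 when 1 library was left out, and 4 with the filter at 5 FPKM, numbers that show only how many passed. Neighbours 1 ID away numbered 29 higher and 13 lower; leaving out 1 library gave 25 to 30 and 10 to 15. With no filter 103 were tested, with 34 higher and 20 lower, against 7288 higher and 7803 lower of 28091 genes in all. The filter at 5 FPKM tested 36, with 19 higher and 12 lower, against 5420 and 4920 of 14775. At that filter the share of lower neighbours was about that of all genes tested, so the shortage given above was not seen. With r_1m averaged as 1 sample, 3408 genes were called higher and 3634 lower, 46 of the 51 genes of the set were called, and 24 neighbours were higher and 7 lower, with the spread given by r_3m only. The shares of chosen genes seen again in a left-out library stayed within their intervals at minimums of 0.5 and 2 FPKM. The median worth of 1 fragment in r_3m replicate 3 was 0.0875 FPKM at a tolerance of 0.1 of a fragment, which 2057 genes met, against 0.0704. The cause of this move was not tested. The fragments behind single genes of the set could not be recovered at either tolerance. No paired analysis was possible because no replicate number in the labels is shared by r_1m and r_3m. Absolute depth is unknown, which limits what a value of 0 shows.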
